A study of Mus musculus with 5 samples.

Results

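H3K27me3 around Hand1 and Hand2 was examined in the mesenchyme of the developing mouse molar. These genes encode basic helix-loop-helix (bHLH) transcription factors that dimerise with E proteins and bind E-box sequences. Both genes were located in the GENCODE M21 annotation of the build GRCm38, and H3K27me3 peaks were collected from each gene body with 5 kb and with 50 kb on each side. They are 2 of the 21938 protein-coding genes measured in the same way. Hand1 (ENSMUSG00000037335.13) lies on chromosome 11, 57828705 to 57832818, minus strand. Hand2 (ENSMUSG00000038193.4) lies on chromosome 8, 57320983 to 57324633, plus strand.

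The samples were profiled by ChIP-seq, in which DNA bound to an immunoprecipitated histone mark is sequenced. They were molars of C57BL/6 mice of wildtype genotype at postnatal day 3, from which the epithelium had been taken away. The 5 libraries were 2 H3K27me3 libraries (replicates 1 and 2), 2 input libraries and 1 library made with an IgG antibody as a negative control. Peaks were called by the authors in 3 lists, namely replicate 1 against its input, the same replicate 1 library against IgG, and replicate 2 against its own input. The labels do not say whether the replicates are separate animals or pools, so an SD below is the spread between 2 libraries, which may be technical.

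H3K27me3 is the trimethylated form of lysine 27 of histone H3. It is placed by Polycomb repressive complex 2, whose methyltransferase is Ezh2, and is known as a mark of silent or weakly transcribed genes, in particular those of developmental transcription factors kept off in a given tissue. Hand2 is known for roles in the heart, the limb bud, the sympathetic nervous system and the distal part of the mandibular arch, where endothelin signalling acts upstream of it. Hand1 is known for roles in the heart, the trophoblast and, beside Hand2, the midline of the mandible. The molar mesenchyme derives from neural crest cells of the first arch. A peak shows where the mark was enriched over a control and gives no measure of expression.

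The 3 lists differed from each other before any gene was considered. Replicate 1 held 30369351 tags after removal of duplicates and replicate 2 held 49947919. The tags were 49 bp long in replicate 1 and 74 bp in replicate 2. The lists held 22757 peaks (replicate 1 against input), 24881 peaks (replicate 1 against IgG) and 33379 peaks (replicate 2). Of all replicate 1 peaks 2.85% were overlapped by a replicate 2 peak, and 51% by a peak called against IgG. Peaks at the lowest pileup of their list, which is 4 tags in replicate 1 and 6 tags in replicate 2, made up between 35.1% and 44.5% of a list, so that the position of a single peak rests on few tags. Of the dental mesenchyme marker genes, 1 of 12 had a peak within 1 kb of its start site in both replicates (Pax9), and of the dental epithelium markers 0 of 8 did. Over all protein-coding genes this share was 1.04%. As H3K27me3 does not show which genes are expressed, these counts do not check the tissue label.

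The DNA that carried peaks at these loci was first read from the genome. The stretches below are those outside untranslated exons of the 2 genes where peaks overlapped in both replicates against input, and for Hand2 also in the list against IgG. The Hand1 stretch was not shared by the list against IgG. A further Hand1 overlap, in the 3′ untranslated exon, is described below and not printed. They are given in GRCm38.p6 on the plus strand, 5′ to 3′, with each CG dinucleotide, the site of DNA methylation and a feature of Polycomb target promoters, in capitals. The Hand1 stretch (chr11:57826905-57827076) lies 5.7 kb downstream of the start site, past the 3′ end of the gene and in no annotated gene. The first Hand2 stretch (chr8:57330849-57331085) lies 9.9 kb downstream of the start site between genes. The second (chr8:57331823-57331953), 10.8 kb downstream, touches an exon of the lincRNA gene Gm34030, and the other two (chr8:57348404-57348655 and chr8:57350226-57350407), 27.4 kb and 29.2 kb downstream, touch exons of the lincRNA gene 5033428I22Rik.
Hand1 stretch: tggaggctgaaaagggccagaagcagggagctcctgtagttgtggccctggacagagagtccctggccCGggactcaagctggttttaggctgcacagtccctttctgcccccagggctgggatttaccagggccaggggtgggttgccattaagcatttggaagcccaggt
Hand2 stretch 1: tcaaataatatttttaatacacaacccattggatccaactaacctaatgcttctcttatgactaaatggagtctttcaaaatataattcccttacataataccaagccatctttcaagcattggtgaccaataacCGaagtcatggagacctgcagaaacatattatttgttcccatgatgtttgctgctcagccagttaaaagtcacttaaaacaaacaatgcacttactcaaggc
Hand2 stretch 2: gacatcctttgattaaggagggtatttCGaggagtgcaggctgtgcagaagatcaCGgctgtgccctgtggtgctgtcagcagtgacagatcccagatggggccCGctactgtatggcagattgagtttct
Hand2 stretch 3: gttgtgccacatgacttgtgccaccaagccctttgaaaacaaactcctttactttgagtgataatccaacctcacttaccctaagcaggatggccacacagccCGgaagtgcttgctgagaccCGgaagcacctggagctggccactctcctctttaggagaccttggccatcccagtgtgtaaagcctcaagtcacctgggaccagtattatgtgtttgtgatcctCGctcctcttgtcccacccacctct
Hand2 stretch 4: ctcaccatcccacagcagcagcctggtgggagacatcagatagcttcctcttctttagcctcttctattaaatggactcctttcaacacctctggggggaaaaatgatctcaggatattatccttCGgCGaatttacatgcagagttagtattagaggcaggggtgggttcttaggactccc
The Hand1 stretch is 172 bases long, with a GC content of 59.9% and 1 CG. The Hand2 stretches hold 1, 3, 3 and 2 CG, and their GC content is 35.4%, 53.4%, 52.4% and 47.8%, so that the recurrent sites near Hand2 are not uniformly GC-rich.

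Hand1 carried peaks within its gene body in every list. Within 5 kb of the gene body, 7 peaks were called in replicate 1 (input control), 8 when IgG was the control and 6 in replicate 2. The mean of the replicates against input was 6.5 ± 0.707 peaks (SD, n = 2). Among protein-coding genes, 25.0%, 25.9% and 35.7% had any peak within this window in the respective lists, 15.7% had one in both replicates against input, and the median gene had 0. The number at Hand1 was above that of 98.2%, 98.3% and 97.4% of protein-coding genes. Peaks covered 5.7% of the window in replicate 1, 9.3% against IgG and 11.4% in replicate 2. The mean against input was 8.57% ± 4.05 (SD, n = 2). These shares were above those of 99.2%, 99.4% and 99.8% of protein-coding genes.

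The peaks of the Hand1 gene body fell on different features in the replicates. In replicate 1 there were 4, of which 1 touched the coding part of an exon and 3 touched untranslated parts of exons. Against IgG there were 3, and 1 of them touched both a coding and an untranslated part. In replicate 2 there were 2, 1 in the 3′ untranslated exon and 1 in the intron. The peak in the 3′ untranslated exon was the only position within 50 kb of Hand1 that overlapped in all 3 lists, over 73 bases (chr11:57829449-57829521). It had the highest fold enrichment at Hand1 in replicate 1, 3.29 over input with a pileup of 4.68, and a fold enrichment of 2.63 in replicate 2.

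The 5′ end of Hand1 gave a less uniform picture. The annotation has 3 Hand1 transcripts, with starts at 57832818 and 57832147. From the outer start the nearest peak was 88 bp away in replicate 1, 1525 bp away against IgG and 1747 bp away in replicate 2. From the inner start these distances were 232, 854 and 1076 bp. Replicate 1 had 2 peaks within 1 kb of the outer start, and the other lists had 0. For comparison, 3.87%, 4.52% and 4.16% of protein-coding genes had a peak within 1 kb of the start site in the respective lists, and 1.04% in both replicates.

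Beyond the gene, most Hand1 peaks lay upstream in replicate 1. Within 50 kb on each side there were 15 peaks in replicate 1, 14 against IgG and 10 in replicate 2. The mean against input was 12.5 ± 3.54 (SD, n = 2). Any peak within this window was found at 54.8%, 56.4% and 73.6% of protein-coding genes, and at 45.4% in both replicates. The number at Hand1 was above that of 98.9%, 98.3% and 98% of them. Of these peaks 8, 10 and 4 were upstream and 3, 1 and 4 downstream. The outermost upstream peak lay 24.6 kb from the start in replicate 1 against either control, and 8.4 kb from it in replicate 2. The replicate 2 peaks farther downstream were 3 peaks between 41.8 kb and 49.0 kb from the start, at and past the 3′ end of Galnt10, a glycosyltransferase gene. The replicate 1 list against input had 1 peak in that region, at 53.1 kb, and the list against IgG had 0.

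**Figure D1:**
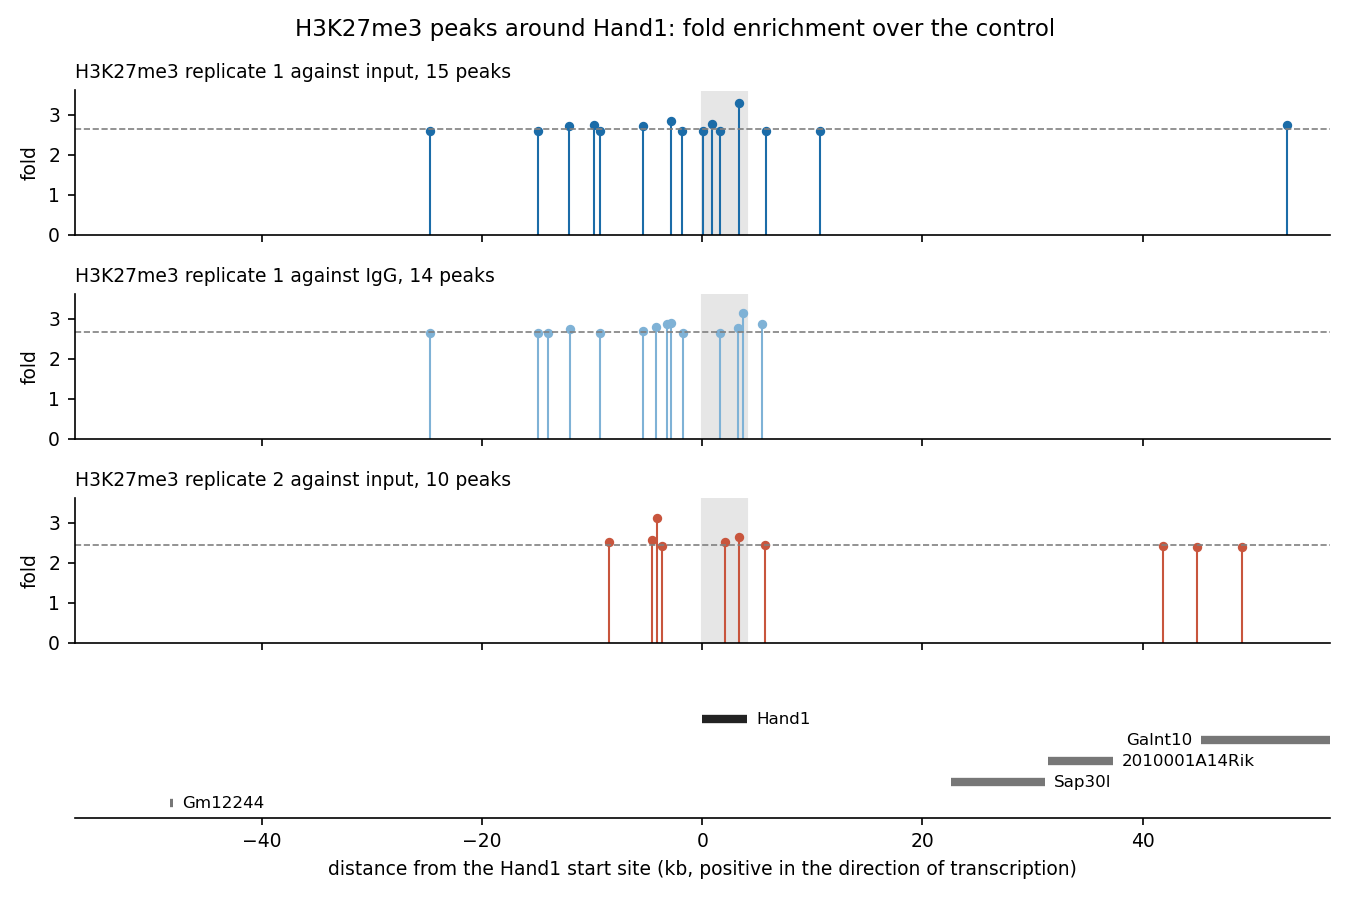
H3K27me3 peaks within 50 kb of Hand1 in the 3 lists. Each stem is 1 peak, placed at its centre by distance from the start site in kb (positive in the direction of transcription), and its height is the fold enrichment over the control. The dashed line is the median of the whole list, the grey band is the Hand1 body, and bars at the bottom are annotated genes. The 15, 14 and 10 peaks gather between 24.6 kb upstream and 10.5 kb downstream, apart from single replicate 1 and 3 replicate 2 peaks beyond 40 kb downstream.

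The coding sequence of Hand2 carried no peak in any list. In this it differed from Hand1 in replicate 1 against either control, but not in replicate 2, where neither coding sequence had one. The Hand2 gene body held 0 peaks in replicate 1 against either control and 1 in replicate 2. That peak (chr8:57321101-57321391) began 118 bp downstream of the start site, in the 5′ untranslated part of the first exon, with a fold enrichment of 2.46. The nearest peak was 1908 bp upstream in replicate 1 and 4018 bp upstream against IgG. In replicate 1 the stretch free of peaks around the Hand2 start site was 7.15 kb long against input and 9.08 kb against IgG, while in replicate 2 it was 1.09 kb. Within 1 kb of the start site, replicate 2 had 2 peaks and the other lists 0.

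Within 5 kb of the Hand2 body 4, 3 and 4 peaks were called, which was above 95.7%, 93% and 94.7% of protein-coding genes. Hand1 had more peaks than Hand2 at this distance in every list, and the difference of their means was larger than the SD at either gene (4 ± 0 at Hand2, n = 2). Peaks covered 4.37%, 2.38% and 7.08% of this window at Hand2, which was below the share at Hand1 in each list. The mean against input was 5.73% ± 1.92 (SD, n = 2) at Hand2, and its difference from the Hand1 mean was smaller than the SD at Hand1. Both genes were read from the same libraries. An SD at either gene, here and within 50 kb, therefore does not measure the spread of the difference between them.

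Within 50 kb the order was the opposite, and peaks at Hand2 outnumbered those at Hand1 in every list. There were 29 peaks in replicate 1, 27 against IgG and 15 in replicate 2. The mean against input was 22 ± 9.9 (SD, n = 2). These were above the numbers of 99.7%, 99.5% and 99.1% of protein-coding genes, and 75, 104 and 191 genes of 21938 had as many or more. The difference between the means of Hand2 and Hand1 was smaller than the SD at Hand2. Peaks covered 5.61%, 4.72% and 3.36% of this window at Hand2 and 2.69%, 2.94% and 2.21% at Hand1. The means against input were 4.48% ± 1.59 and 2.45% ± 0.337 (SD, n = 2 each), and here the difference exceeded the SD at either gene.

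**Figure D2:**
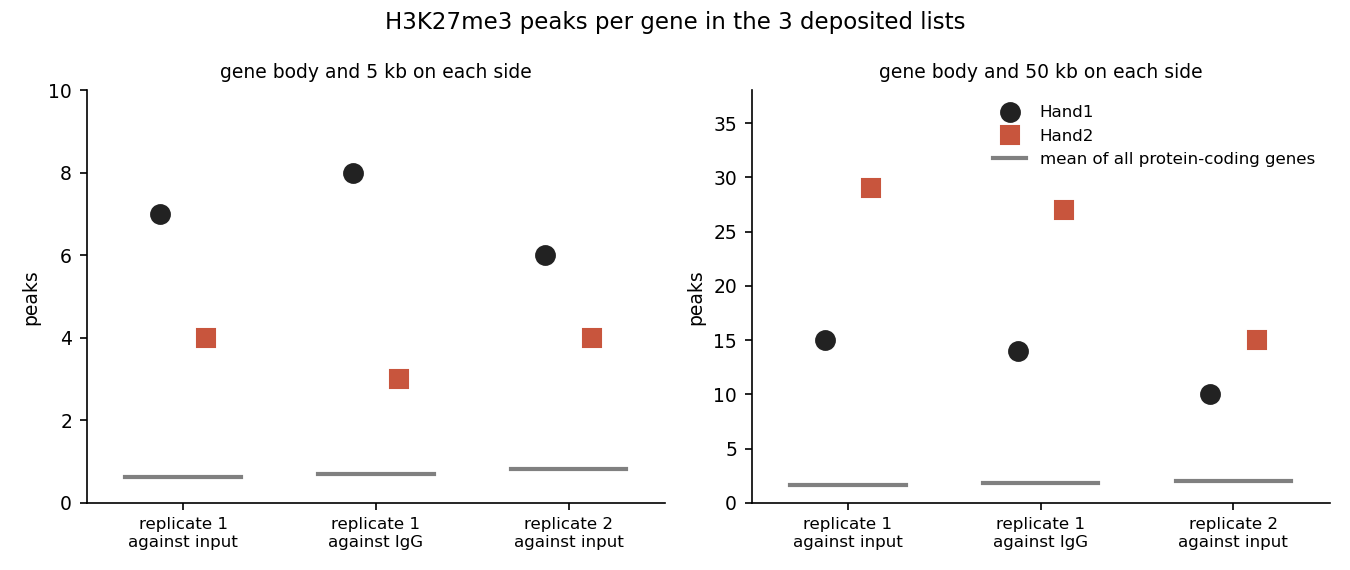
Number of H3K27me3 peaks (vertical axis) in each of the 3 lists (horizontal axis) for Hand1 (circles) and Hand2 (squares), with 5 kb (left) and 50 kb (right) on each side of the gene body. Grey lines are means over all protein-coding genes, between 0.619 and 0.819 peaks on the left and between 1.67 and 2.01 on the right. Hand1 lies above Hand2 on the left in each list and below it on the right.

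Most peaks around Hand2 lay downstream of the gene. Between 40% and 55.2% of the peaks within 50 kb of Hand2 in each list lay over a single neighbouring non-coding gene. Downstream of Hand2 there were 22 peaks in replicate 1, 19 against IgG and 9 in replicate 2, compared with 7, 8 and 5 upstream. The body of 5033428I22Rik, a lincRNA gene on the same strand that begins 7.49 kb past the 3′ end of Hand2, is 22.5 kb long and makes up 21.7% of the window. It held 16 of 29, 13 of 27 and 6 of 15 peaks, which are 55.2%, 48.1% and 40% of them. Peaks covered 16.6%, 13.1% and 6.14% of its length. Gm34030, a shorter lincRNA gene on the opposite strand that partly overlaps it, held 3, 2 and 1 peaks.

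Hand2os1, the antisense RNA gene that overlaps Hand2 and runs upstream of it over 43.1 kb in all, held 7, 8 and 5 peaks. Its body makes up 41.6% of the window, and peaks covered 2.42%, 2.42% and 2.84% of it. In replicate 1 these peaks lay within 10.6 kb of the Hand2 start site, or 11 kb against IgG, and the farther part of Hand2os1 had none. Replicate 2 had 1 peak at 48.4 kb upstream, outside Hand2os1. ChIP-seq carries no strand information, so that a peak where genes overlap cannot be assigned to either of them. The processed pseudogene Gm17994, within Hand2os1, held 0 peaks in each list.

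**Figure D3:**
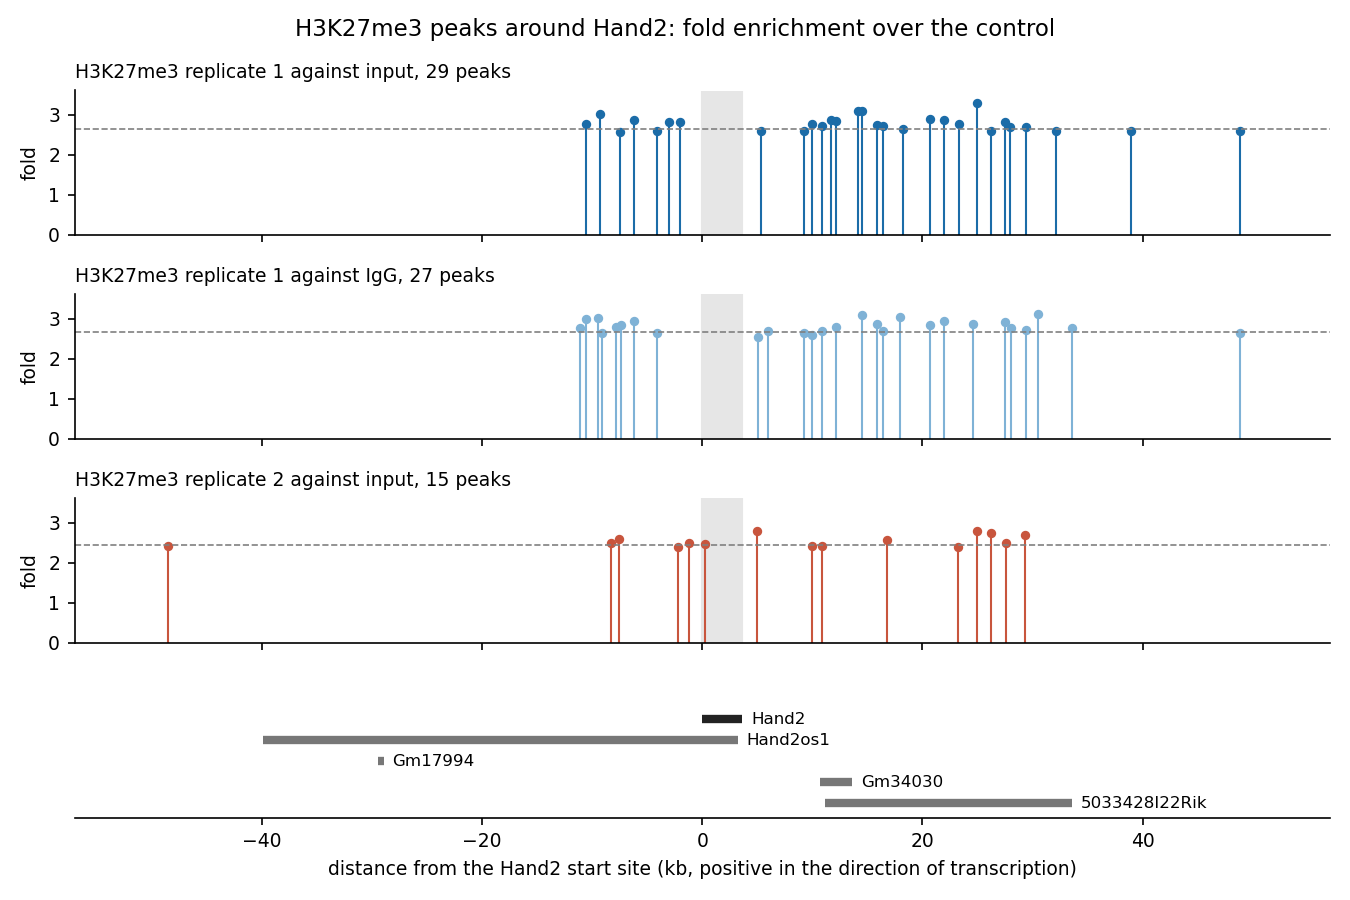
H3K27me3 peaks within 50 kb of Hand2, drawn as for Hand1, with distance from the start site in kb on the horizontal axis and fold enrichment on the vertical axis. The grey band, the Hand2 body, holds 0, 0 and 1 peaks, and the densest group of peaks lies over 5033428I22Rik, with 16, 13 and 6 peaks.

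When each locus was divided into 10-kb bins out to 200 kb on each side, the highest covered share at Hand2 in every list was found 20 to 30 kb downstream of the start site. It was 23.6% in replicate 1, 18% against IgG and 11% in replicate 2. The bin from 10 to 20 kb downstream followed in replicate 1 with 16.9%, while in replicate 2 the bin just upstream of the start did, with 9.35%. At Hand1 the highest bin was the 10 kb upstream of the start in replicate 1 (11.3%, and 12.8% against IgG) and the 10 kb downstream of it in replicate 2 (11.8%). Between 50 kb and 200 kb from the start, no bin at Hand1 exceeded 2.78%. At Hand2 the highest bin at that distance was 6.25%, in replicate 2, between 120 and 130 kb upstream.

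**Figure D4:**
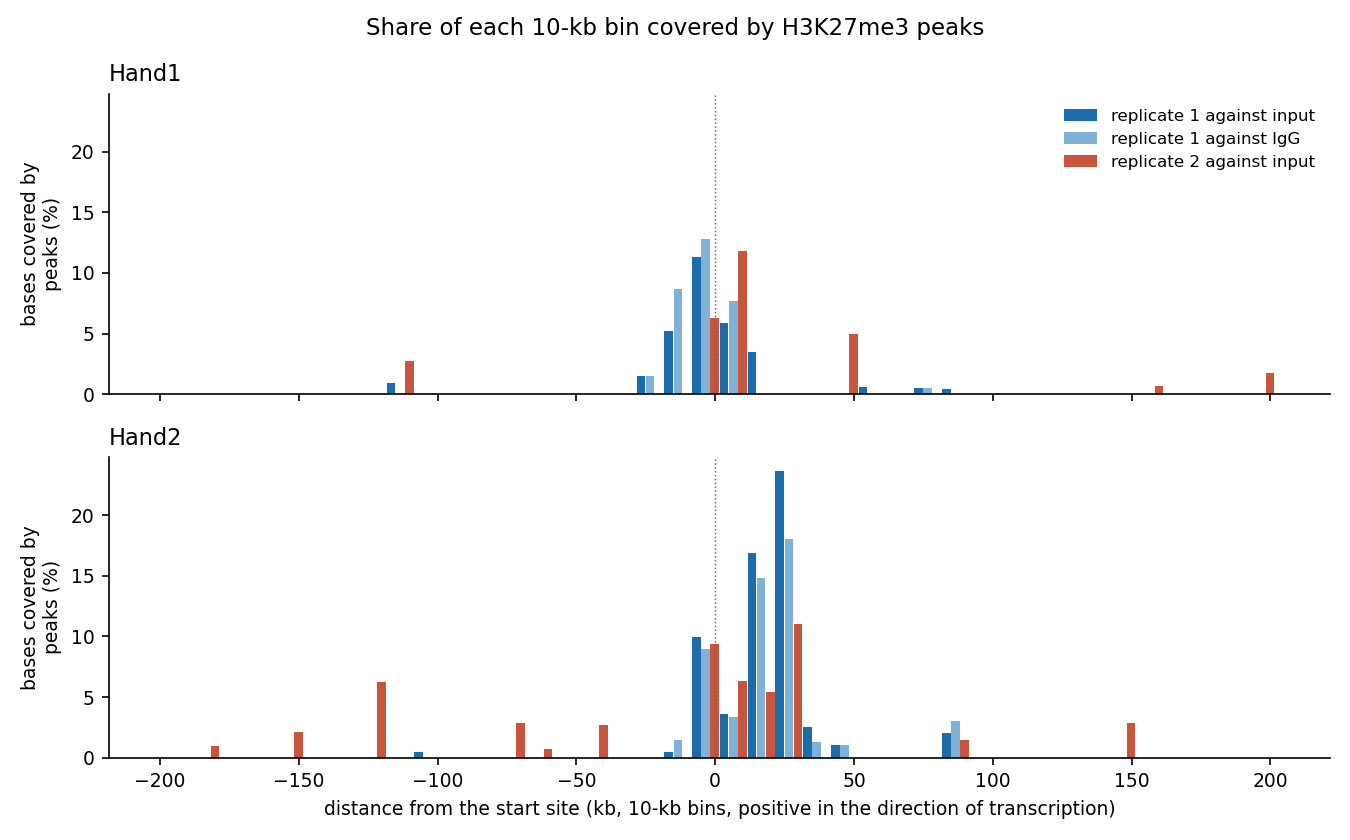
Share of each 10-kb bin covered by H3K27me3 peaks (vertical axis, percent) by distance from the start site (horizontal axis, kb), for Hand1 (top) and Hand2 (bottom). The 3 bars within a bin are the 3 lists. At Hand2 the tallest bar of each list is the bin from 20 to 30 kb downstream (23.6%, 18% and 11%), and at Hand1 the tallest bars adjoin the start site.

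Peaks of one list that were 5 kb or less apart were next merged, and the merged stretch that held or lay nearest to each gene was measured. At Hand1 it spanned 25.9 kb with 13 peaks in replicate 1 and 20.4 kb with 13 peaks against IgG, but 4.17 kb with 3 peaks in replicate 2. At Hand2 it spanned 27 kb with 20 peaks, 28.5 kb with 18 peaks and 13.2 kb with 6 peaks. In replicate 1 the Hand2 stretch began past the 3′ end of the gene, and in replicate 2 it included the gene. Only 10% to 28.3% of the length of these stretches at either gene was covered by peaks, which were themselves short, with medians of 151 to 216 bp. The stretches were longer than 97% of the merged stretches of replicate 2 at Hand1, and longer than at least 99.5% in the other cases. Most merged stretches of a list are single peaks (17201 stretches from 22757 peaks in replicate 1), so a stretch of several peaks ranks high by construction. With peaks merged at 2 kb, the Hand2 stretch of replicate 1 was 1 peak of 0.17 kb, longer than 68.2%.

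The replicates were then compared peak by peak. Of the 15 replicate 1 peaks around Hand1, 2 shared bases with a replicate 2 peak (13.3%, 95% Wilson interval 3.74% to 37.9%), and of the 29 around Hand2, 8 (27.6%, interval 14.7% to 45.7%). In the other direction these were 2 of 10 (20%) and 8 of 15 (53.3%, interval 30.1% to 75.2%). The share over all peaks was 2.85% and 1.9%. Both loci hold more peaks than most protein-coding genes. No share was computed for loci with as many peaks, so the share over all peaks is not a matched comparison. The intervals cover counting error only, and neighbouring peaks are not independent. A replicate 2 peak lay within 1 kb of 7 of 15 replicate 1 peaks at Hand1 and of 17 of 29 at Hand2. The share within 1 kb over all peaks was not computed, so these counts have no comparison and do not measure agreement of the replicates. Around Hand2 the overlaps spanned 1062 bases in 8 stretches. Of these, 7 lay downstream of the gene, 5 of them in 5033428I22Rik, and the one upstream was 23 bases long. The list against IgG shares its immunoprecipitated library with replicate 1, and overlapped 9 of 15 peaks at Hand1 (60%) and 18 of 29 at Hand2 (62.1%), with 51% over all peaks.

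Fold enrichments at both genes lay close to the medians of their lists. Those at Hand1 ranged from 2.58 to 3.29 in replicate 1, with a median of 2.60, and from 2.40 to 3.11 in replicate 2, with a median of 2.47. At Hand2 the medians were 2.76 and 2.49, and the maxima 3.29 and 2.79. The median over the whole list was 2.63 in replicate 1 and 2.45 in replicate 2. Fewer Hand2 peaks than peaks of the whole list were at the lowest pileup, namely 7 of 29 (24.1%, list 44.5%) in replicate 1, 4 of 27 (14.8%, list 35.1%) against IgG and 4 of 15 (26.7%, list 37.9%) in replicate 2. At Hand1 they were 8 of 15 (53.3%), 6 of 14 (42.9%) and 4 of 10 (40%), each above the share of its list, though by little in replicate 2. The highest pileup at Hand1 within replicate 2 was 8.52, in a peak of 72 bp at 4.04 kb upstream (chr11:57836856-57836927). The nearest replicate 1 peak was 16 bp away against IgG and 977 bp away against input. At Hand2 the peak of highest fold enrichment in replicate 1 (chr8:57345920-57345979, 3.29) lay in an exon of 5033428I22Rik and was inside a replicate 2 peak of fold enrichment 2.79.

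The base composition of peaks was read from the genome. Median GC content was 54.1%, 50.3% and 52.6% in the Hand1 peaks of the 3 lists and 44.3%, 47.2% and 47.8% in the Hand2 peaks, compared with 46.4%, 46.9% and 45.1% over all peaks. Within 50 kb of the start sites, 1-kb bins with a replicate 1 peak had a median of 1.5 CG per 100 bases at Hand1, and bins without one 1.2. At Hand2 these medians were 1.2 and 0.70. In replicate 2 they were 1.9 and 1.2 at Hand1 and 1.75 and 0.70 at Hand2. By these medians, bins with a peak were richer in CG at both genes and in both replicates. Several of the bins richest in CG had no peak, however. At Hand1 the bins from 30 and 31 kb downstream, with 9.3 and 8.1 CG per 100 bases, had 0 peaks in each list. At Hand2 the bin from the start site, with 9.8, had 1 peak in replicate 2 and 0 in the other lists. The next bin, with 6.1, had 0 in each list. These are descriptions of bins that neighbour each other.

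The promoter of Hand2 is shown because replicate 2 had peaks on both sides of it, 1 ending 969 bp upstream of the start site and 1 beginning 118 bp downstream, and no list had a peak within it. The 250 bases before the start (RefSeq, GRCm38.p6, chr8:57320733-57320982, plus strand) are given with CANNTG, the E-box that bHLH dimers bind, in capitals.
Hand2 promoter: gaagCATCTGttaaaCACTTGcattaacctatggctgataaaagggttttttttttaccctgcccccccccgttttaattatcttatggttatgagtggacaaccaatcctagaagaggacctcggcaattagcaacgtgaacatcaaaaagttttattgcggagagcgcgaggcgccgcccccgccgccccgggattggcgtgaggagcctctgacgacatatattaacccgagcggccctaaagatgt
The sequence holds 2 CANNTG, counted on both strands, as the motif read on either strand is the same. At least 1 was found in 66.2% of 32851 promoter entries of the same length. One of the 2 is CATCTG, which was found on either strand in 14.4% of entries. GATA, the core of the site of Gata factors, was found 2 times, and at least once in 53.6% of entries. There are 15 CG, and the CG observed over expected was 0.99, above 94% of the entries, while the GC content of 49.2% was below their median of 52.4%. A match to these letters is no measure of binding.

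The genes around Hand1 and Hand2 are related to each other, as Sap30l and Galnt10 lie beside Hand1 and their paralogues Sap30 and Galnt7 lie beyond Hand2. Sap30l, which encodes a relative of the Sin3 corepressor subunit Sap30, lies 18.5 kb from Hand1 and had 0 peaks within 5 kb in each list. Sap30, 158 kb from Hand2, also had 0 in each list. Galnt10 had 3, 1 and 4 peaks within 5 kb, and Galnt7, 199 kb from Hand2, had 2, 0 and 1. The non-coding 2010001A14Rik, between Hand1 and Galnt10, had 0, 0 and 1, and the processed pseudogene Gm12244, 48.1 kb from Hand1, had 0 in each list.

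Hand1 and Hand2 were set beside 5 lists of genes that act with them or are their bHLH relatives. The numbers here are peaks within 5 kb, in the order replicate 1 with the input control, replicate 1 with the IgG control, and replicate 2, and the window grows with the gene, so that long genes offer more room for a peak. A peak in both replicates against input was found at 15.7% of all protein-coding genes, with a median of 0 peaks in each list.

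Of the heart regulators, 7 of 8 had a peak in both replicates, with medians of 8.5, 9.5 and 5 peaks. Gata4, a zinc finger factor of the early heart, had 30, 29 and 15 peaks, more than either Hand gene. Peaks covered 7.62% of its window in replicate 1 and 4.28% in replicate 2, both against input. These shares were 5.7% and 11.4% at Hand1 and 4.37% and 7.08% at Hand2, so that Gata4 was below both in replicate 2. Tbx5, a T-box factor of the heart and forelimb, had 11, 15 and 5 peaks, and Isl1, a LIM homeodomain factor of heart progenitors, had 9, 10 and 7. Nkx2-5, a homeobox factor of the early heart, had 8, 12 and 5, and Tbx20, another T-box factor, had 7, 9 and 5. The relatives of Gata4 differed, with 9, 9 and 4 at Gata6 and 5, 2 and 1 at Gata5. Mef2c, which encodes a MADS-box factor, was the member without a peak in both replicates, with 0, 0 and 5.

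Among limb genes 4 of 7 had a peak in both replicates. Hoxd13, a homeobox gene of the digits, had 7, 8 and 4 peaks, Grem1, a BMP antagonist, had 3, 3 and 3, and Shh, the signal of the posterior limb bud, had 2, 2 and 1. Tbx3, a T-box factor of the limb, had 3, 2 and 2. Of the Twist-family bHLH genes, the closest relatives of the Hand genes listed, 7 of 10 had a peak in both replicates, with medians of 1.5, 1.5 and 1. Ptf1a, a factor of the pancreas and hindbrain, had 7, 8 and 2, and Tcf21, a factor of epicardium and other visceral mesenchyme, had 7, 6 and 1. Twist1, which the dental mesenchyme marker list also holds, had 2, 1 and 1, and Ferd3l had 1, 1 and 1. Tcf24 had 5, 4 and 2, Msc, a factor of branchial arch muscle, had 2, 4 and 2, and Tcf15, a factor of somites, had 1, 2 and 1. Tcf23 and Scx had 0 in each list.

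Peaks were fewer at the genes that act upstream of Hand2 in the arches than at the heart regulators, limb genes and Twist-family genes. Of the endothelin and Dlx genes, 3 of 10 (30%) had a peak in both replicates, compared with 15.7% of all protein-coding genes. Their median was 0 in each list, as it was over all protein-coding genes. These were Ednra, the endothelin receptor, with 1, 1 and 3 peaks, Ece1, the enzyme that processes endothelin, with 2, 3 and 2, and the G protein gene Gnaq with 3, 3 and 4. Peaks covered less than 1% of each of these windows in both replicates against input. Shares below 1% were also found in other gene lists, such as 0.7% at Gata5 and 0.652% at Ferd3l in replicate 2. Edn1, the ligand, and the homeobox genes Dlx5 and Dlx6 had 0 in each list. Of the E protein genes, whose products pair with Hand factors, 1 of 3 had a peak in both replicates, Tcf12 with 1, 1 and 2, while Tcf4 had 0, 0 and 6 and Tcf3 had 0 in each list.

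**Figure D5:**
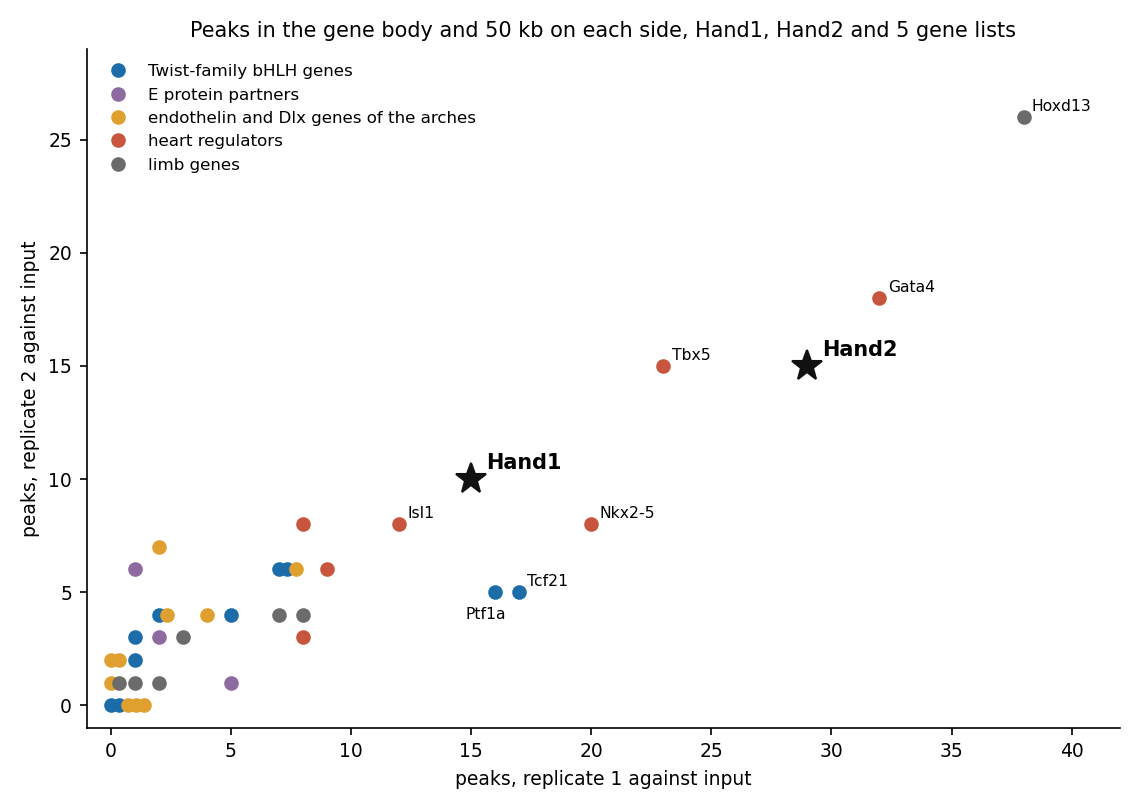
Peaks within 50 kb of the gene body in replicate 1 against input (horizontal axis) and replicate 2 against input (vertical axis). Each point is 1 gene of the 5 lists, coloured by list, and stars are Hand1 (15 and 10 peaks) and Hand2 (29 and 15). Genes with equal counts are drawn side by side, a gene on more than 1 list is drawn once, and only Hoxd13 (38 and 26) and Gata4 (32 and 18) lie above Hand2 in both replicates.

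Finally, the protein-coding genes whose 6 peak counts (3 lists, 5 kb and 50 kb) came closest to those of each Hand gene were found by the sum of absolute differences. For Hand1 these were 4930447C04Rik with a sum of 5, Lmx1a with 6, and Irx2, Plpp4 and Pou3f1 with 7 each. Lmx1a, a LIM homeobox gene, had 7, 9 and 6 peaks within 5 kb and 12, 14 and 8 within 50 kb. For Hand2 the sums were larger, 13 for Gm5089, 14 for Cfap65, 15 for Gm10837 and 16 for Bub3 and Cdkn2b. Gm5089 and Gm10837 lie on chromosome 14 within 50 kb of each other and count some of the same peaks. Cdkn2b, a cell cycle inhibitor gene, had 4, 5 and 2 peaks within 5 kb and 21, 25 and 17 within 50 kb.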

How the data were processed

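Per the labels and the study's methods, the authors aligned ChIP-seq reads to GRCm38 (mm10) with BWA, sorted them with SAMtools and called broad peaks at a p-value cutoff of 0.005. The submitters' processing notes name MACS2 2.1.1 and Partek, and the file headers give MACS 2.1.1.20160309. Libraries were not pooled. In the deposited lists the pileup is a signal, the scaled number of overlapping tags in a peak. The deposited fold enrichment is a ratio of this signal to the control, and the deposited p-values are on a −log10 scale. The lists were used as they stand.

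An overlap is at least 1 base, and distances run from the outermost annotated 5′ end to the nearest base of a peak. Windows, bins and merged stretches were computed with Python 3.11.15, pandas 2.3.3 and numpy 2.4.6, and the window counts were checked on simulated intervals. The number of peaks past a chromosome end of this build was 0. No test was run, since 2 H3K27me3 libraries with no second condition allow none. The 2 Hand genes and the gene lists were chosen with earlier results of these data known, so a high peak number at them is no independent finding. A further list is not reported here. Genes were named by rule: those within 50 kb of either gene, Sap30 and Galnt7 as paralogues of neighbours, from each list those with a peak within 5 kb in both replicates and at most 3 others, and the 5 most alike. RefSeq promoter entries matched 1 of the 2 genes, Hand2. Alternatives were stricter cutoffs, other windows and merging distances, the IgG control, a thinned replicate 2 list and leaving out each replicate.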

Additional observations from a re-analysis of the deposited data

How the results depend on the processing

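At a fold enrichment of at least 3 the mean numbers of peaks were 1 (Hand1, 5 kb), 1 (Hand1, 50 kb), 0 (Hand2, 5 kb) and 2 (Hand2, 50 kb). At a −log10 p-value of at least 3 they were 1, 1, 0.5 and 2.5. Both cutoffs keep few peaks by construction. The fold cutoff kept 8.96% of the replicate 1 list against input and 1.56% of the replicate 2 list, and the p-value cutoff 3.27% and 11%. When a replicate 2 peak up to 1 kb away counted as shared, there were 7 replicate 1 peaks at Hand1 and 17 at Hand2. The share over all peaks at that distance was not computed. Asking for 50% of a peak to be overlapped left 3 at Hand2. The mean merged stretch at Hand2, 20.1 kb, became 48.6 kb when peaks up to 10 kb apart were merged and 1.43 kb at 2 kb, since the group of downstream peaks then no longer joins the peak nearest to the gene. At Hand1 the mean of 15 kb, with an SD of 15.3 kb (n = 2), became 25.1 kb and 3.98 kb. Taking all annotated genes in place of protein-coding genes changed the mean share with a peak within 5 kb from 30.4% to 20.4%. Without replicate 1 or replicate 2, the peaks within 5 kb were 6 to 7 at Hand1 and 4 to 4 at Hand2, and within 50 kb 10 to 15 and 15 to 29. Windows around the start site, the IgG control and a replicate 2 list reduced to the peak number of replicate 1 moved no mean peak number by more than 1.5 times. Within 5 kb, Hand1 moved from 6.5 to 5.5 around the start site and Hand2 from 4 to 3.5 under each of these settings, which is more than the spread between replicates. Depth, tag length and replicate cannot be told apart here. Hand1 and Hand2 were read from the same lists, so their values are paired within each list, but no paired test was run.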
